A study of Mus musculus with 12 samples.

Results

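The p53 target genes examined here are 31 named mouse genes: Trp53, which encodes the transcription factor p53, and 30 genes that p53 is known to bind and regulate, leaving out the BCL2 family and the caspases. They were taken by symbol from 24533 genes, and all 31 were found, with a test, in both of the authors' deposited tables. RNA was sequenced from 12 libraries of C57BL/6 mouse bone marrow, 3 for each of 4 groups: lineage-negative cells (LinNeg) labelled WT, LinNeg labelled U2af1KO, LSK cells labelled WT and LSK cells labelled U2af1KO. LSK cells are the Sca-1 and c-Kit positive part of the lineage-negative marrow and hold the stem cells, and the LSK source also carries the letters BMT, which the labels leave unexplained. U2af1 encodes a splicing factor that contacts the AG at 3′ splice sites. The labels do not say how U2af1 was deleted, at what age, or whether each library is from its own animal; the p-values therefore reflect only how much these libraries vary, and that variation may be technical. In bulk RNA, fewer cells of a type and less RNA per cell cannot be told apart.

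p53 is held at a low level by Mdm2, a ubiquitin ligase that is itself a p53 target, so that the pair forms a negative feedback loop. When DNA damage, ribosome stress or other stress releases p53, it binds paired half-sites near its targets and raises genes for cell cycle arrest (Cdkn1a, Btg2), death (Eda2r, Perp, Aen), repair (Xpc, Polk) and growth control (Sesn1, Sesn2). In marrow, p53 is known to limit the survival of damaged stem and progenitor cells and to act in stem cell quiescence.

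Matches to the sequence p53 recognises were searched near the start sites of these genes. A match was a pair of p53 consensus half-sites of 10 bases each, 0 to 13 bases apart, with the fixed C and G of each half-site kept and at most 2 mismatches over the 20 bases. The half-site reads the same on both strands. RefSeq start-site windows (GRCm38.p6, 250 bases before to 50 after) were found for 25 of the members, 34 windows in all, and 7 members had a match. Among all 32851 windows 4.09% held one, and 4.71% of genes had such a window. At 1 mismatch or fewer there were 4 members, with 1 such window each among the 34, against 0.627% of all windows. A match describes letters only; binding was not measured, and a window without a match says nothing of sites farther away. The sites are shown with 5 bases on each side, 5′ to 3′ on the gene's strand, with the half-sites in capitals.
Cdkn1a (chr17:29090901-29090942, plus strand, 0 mismatches, half-sites 12 bases apart, upstream of the gene): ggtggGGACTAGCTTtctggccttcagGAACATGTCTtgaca
Cdkn1a, second pair (chr17:29090923-29090952, plus strand, 1 mismatch, adjacent half-sites, upstream of the gene): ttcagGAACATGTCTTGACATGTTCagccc
Ccng1 (chr11:40755457-40755486, minus strand, 1 mismatch, adjacent half-sites, upstream of the gene): aggccAGACCTGCCCGGGCAAGCCTtggca
Rps27l (chr9:66946291-66946320, plus strand, 1 mismatch, adjacent half-sites, in an intron of the GENCODE M21 gene): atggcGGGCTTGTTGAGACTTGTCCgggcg
Gtse1 (chr15:85859940-85859969, plus strand, 1 mismatch, adjacent half-sites, in an untranslated exon part): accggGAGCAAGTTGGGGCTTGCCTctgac
Ckap2 (chr8:22185998-22186027, minus strand, 2 mismatches, adjacent half-sites, upstream of the gene): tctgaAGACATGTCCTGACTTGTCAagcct
Cd80 (chr16:38458817-38458846, plus strand, 2 mismatches, adjacent half-sites, in an intron): gctcaGAACAGGCCTGGACAAGTCAcctcc
Sesn1 (chr10:41887248-41887280, plus strand, 2 mismatches, half-sites 3 bases apart, in an intron): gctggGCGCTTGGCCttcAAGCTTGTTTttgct
Apart from the second Cdkn1a pair, each site shown has the fewest mismatches in its window and, among ties, the shortest gap. Gtse1, Ckap2 and Sesn1 had such ties. The windows held 1 to 4 pairs within the limits for each of these genes, and for Cdkn1a the second of its 2 pairs is shown because it has no gap and shares a half-site with the other.

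The Ccng1 and Cdkn1a windows are also shown whole up to the start site, because their upstream matches have the fewest mismatches and the RNA of these genes differed in behaviour: Ccng1 rose with the KO label in both tables, and Cdkn1a was called in neither.
The half-sites of the first pair are again in capitals, and each sequence ends just before the start site.
Ccng1 (chr11:40755287-40755536, minus strand): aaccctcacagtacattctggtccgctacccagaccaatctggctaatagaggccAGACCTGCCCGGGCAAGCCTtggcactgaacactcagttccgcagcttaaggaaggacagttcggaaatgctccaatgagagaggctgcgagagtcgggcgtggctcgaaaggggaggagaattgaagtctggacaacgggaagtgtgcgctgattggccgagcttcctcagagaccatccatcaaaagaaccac
Cdkn1a (chr17:29090729-29090978, plus strand): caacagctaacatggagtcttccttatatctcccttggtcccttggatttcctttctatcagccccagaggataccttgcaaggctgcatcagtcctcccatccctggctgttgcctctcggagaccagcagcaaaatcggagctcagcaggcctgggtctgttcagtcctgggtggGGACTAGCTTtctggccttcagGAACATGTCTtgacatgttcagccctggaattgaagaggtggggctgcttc

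Each fold change divides the KO-labelled by the WT-labelled level and is given as log2, with the authors' standard error (SE). A gene is called higher or lower when its adjusted p, from the authors' DESeq2 Wald test, is under 0.05. The tables give no value per library, so depth per library is unknown and it cannot be said whether single libraries of the groups overlap. In their place a mean per label, in normalized counts, was derived from the authors' mean and fold change with 3 libraries on each side; it has no spread of its own. Each table has its own normalization, and no level is set across LinNeg and LSK.

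U2af1 itself, on chromosome 17 from 31647081 to 31658892, was higher under the KO label, at 0.65 (SE 0.19, adjusted p = 0.00293) in the authors' deposited table for LinNeg and 0.61 (SE 0.06, adjusted p = 1.72e-25) in that for LSK. U2af1 RNA thus rose where the label says KO, which goes against the label, and the cause was not tested. Of its 50-base words 21.7% also occur in other genes' transcripts, and the labels do not say which part of the gene was deleted. Every direction here is that of libraries labelled KO against libraries labelled WT and rests on the comparison's name. Markers of other cell types were read in the same tables, where 22.1% of all genes tested were called higher and 19.3% lower in LinNeg, and 32.4% and 29.2% in LSK. Erythroid markers were called higher for 8 of 8 tested in both tables, their summed derived mean going from 14924 to 71754 in LinNeg and from 9831 to 72937 in LSK, with 4 globin genes listed at 0 in LinNeg and 2 in LSK. Neutrophil markers were called lower for 8 of 10 in LinNeg (87568 to 4723) and higher for 10 of 12 in LSK (61193 to 172446). Monocyte and dendritic markers were called lower for 10 of 10 in LinNeg (78263 to 6386); in LSK 3 of 9 were called higher and 3 lower (17676 to 7153). Stem cell markers were called lower for 9 of 10 in LSK (85452 to 25309). Of the markers that define LSK cells, Kit had an authors' mean of 21655 normalized counts in LSK and Ly6a (Sca-1) one of 464, and both were lower with the KO label, at -0.98 (SE 0.05) and -0.82 (SE 0.12) in the authors' deposited table. In LinNeg the authors' means were 1879 for Kit and 1694 for Ly6a, and the authors' deposited table gave 0.36 (SE 0.16, adjusted p = 0.0572) and 2.20 (SE 0.28, adjusted p = 1.31e-13), so Ly6a went in opposite directions in the 2 tables. Of 10 stem cell markers in LinNeg, 3 were called higher and 3 lower. Neural markers were called higher for 7 of 10 in LinNeg (7182 to 24738) and 10 of 10 in LSK (4735 to 9270.0). Their median log2 fold change was 1.80 in LinNeg and 7.20 in LSK. Of the mast cell and eosinophil markers 5 of 10 were called lower and 3 higher in LinNeg, and 8 higher and 1 lower in LSK. B cell markers were called lower for 3 of 9 in LinNeg and 4 of 10 in LSK, and T and NK markers higher for 3 of 6 in LinNeg and lower for 1 of 8 in LSK. Ddx3y, on the Y chromosome, was at -9.21 (SE 0.38) and Xist at 7.49 (SE 0.94) in the authors' deposited table for LSK. Eif2s3y, Uty and Kdm5d, also on the Y chromosome, were at -9.15, -9.06 and -8.95 there. In LSK the KO label thus goes with sex, as read from these genes, and label and sex cannot be told apart. The authors' deposited table for LinNeg gave Ddx3y -0.79 (SE 1.64, adjusted p = 0.739 by DESeq2) and Xist 10.02 (SE 1.81, adjusted p = 2.73e-07 by DESeq2). Xist thus went with the KO label in LinNeg too, while Ddx3y was not called. The labels may therefore differ in sex in part in LinNeg as well, which cannot be settled without values per library. The part of these values in the results below was not tested.

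Across the p53 target genes, Trp53 and a small set of targets rose with the KO label in both populations, Xpc and Trim35 fell in both, the arrest gene Cdkn1a was called in neither, and the feedback gene Mdm2 fell in LSK. In LinNeg, 14 of 31 members were called (45.2%), against 41.4% of the 17108 genes tested: 10 were higher (32.3%, against 22.1% of all genes) and 4 lower (12.9%, against 19.3%). In LSK, 20 of 31 were called (64.5%), against 61.6% of 16482 genes: 12 were higher (38.7%, against 32.4%) and 8 lower (25.8%, against 29.2%). The shares called are near those of all genes in both tables. The median log2 fold change of the members was 0.39 in LinNeg, beside 0.16 over all genes tested, and -0.03 in LSK, beside 0.04. Calls of at least 2-fold were made for 6 members in LinNeg (19.4%, against 23.6%) and 10 in LSK (32.3%, against 22.6%).

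**Figure D1:**
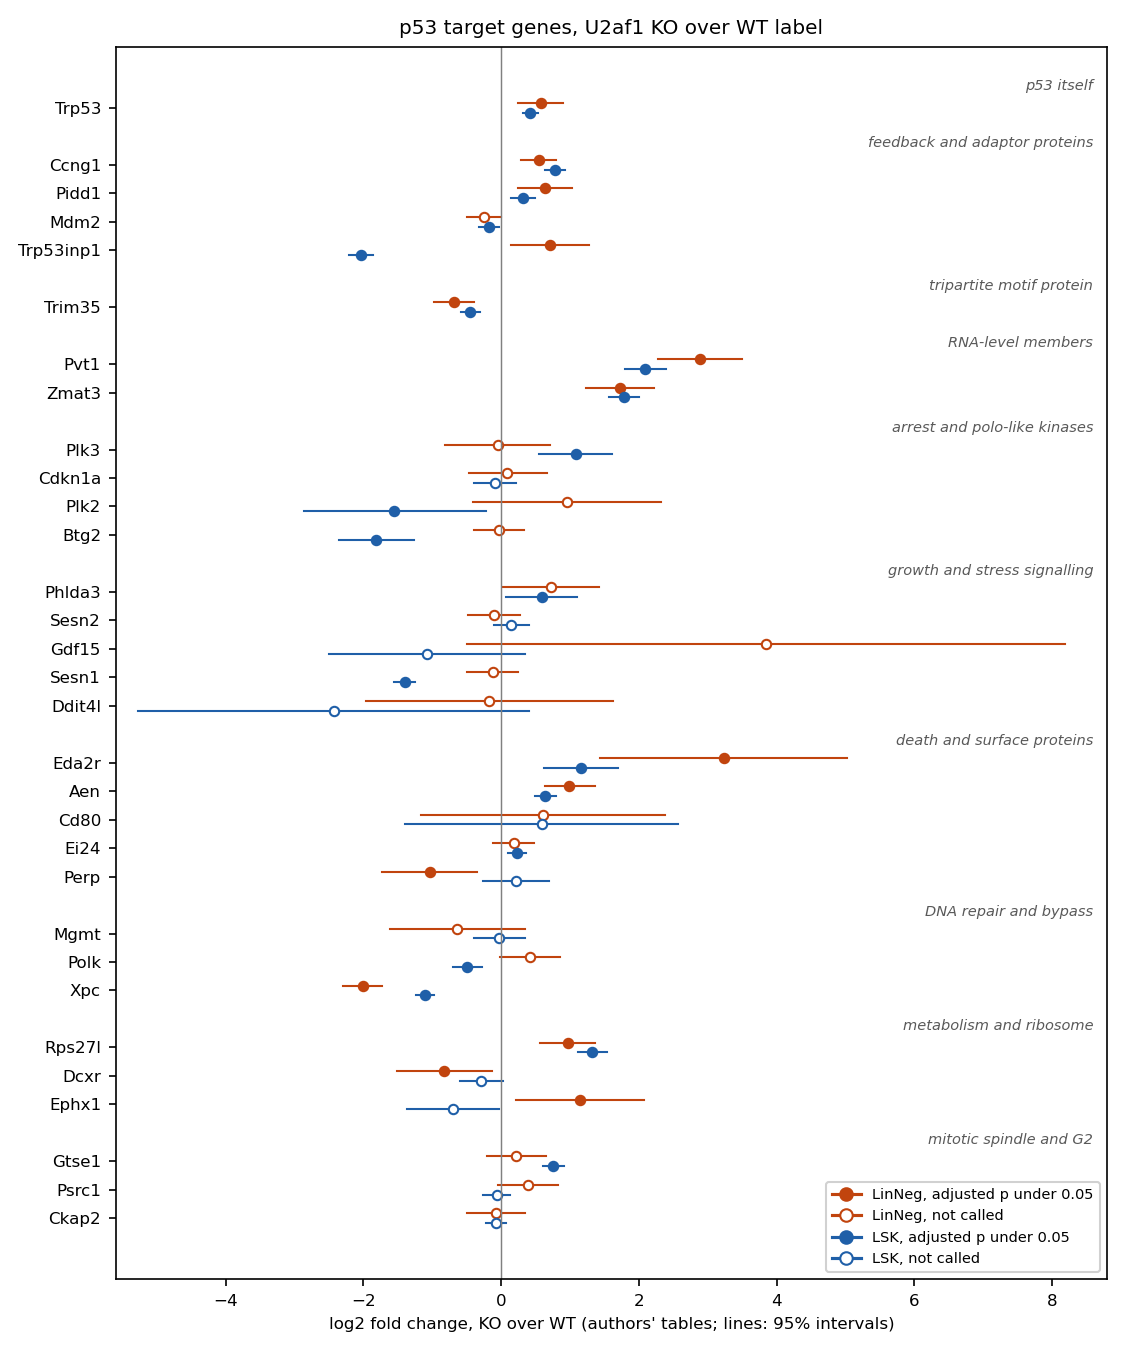
Log2 fold change of each of the 31 genes, KO over WT, in LinNeg (orange) and LSK (blue), grouped by role, with lines for the 95% interval; filled points have an adjusted p under 0.05. Pvt1 and Zmat3 lie far to the right in both tables, Xpc to the left in both, and Trp53inp1 on opposite sides (0.71 and -2.04).

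Because the median gene of the LinNeg table stands at 0.16, the members were also read relative to it. Of all genes called in LinNeg 53.3% were higher, and 42.4% after this recentring; for the members the count went from 10 higher and 4 lower to 8 and 5. Trp53inp1 (0.55, adjusted p = 0.112) and Ephx1 (0.98, adjusted p = 0.0818) then lost their calls in LinNeg, and Mdm2 was called lower (-0.41, adjusted p = 0.00529, recomputed from the DESeq2 statistics). In LSK the median is 0.04, and recentring ended the call of Phlda3 (0.54, adjusted p = 0.0627) and called Ephx1 lower (-0.74, adjusted p = 0.0499, recomputed from the DESeq2 statistics).

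Trp53, on chromosome 11 from 69580359 to 69591873 (mm10), rose in both populations. Its derived mean went from 4779 normalized counts under the WT label to 7129 under the KO label in LinNeg, and from 7141 to 9584 in LSK. The authors' deposited table gave 0.58 (SE 0.17, adjusted p = 0.00199) in LinNeg, and 0.42 (SE 0.05, adjusted p = 1.21e-14) in LSK. These are 1.49-fold and 1.34-fold, and the difference between the populations was -0.15 (95% interval -0.49 to 0.19). A processed copy, Trp53-ps, and other genes share 3.95% of the 50-base words of its transcripts, so a small part of its reads could be placed elsewhere.

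The feedback and adaptor genes did not move as a block. Mdm2, the ligase that degrades p53, went from 2702 to 2271 in LinNeg and from 2011 to 1777 in LSK in derived mean. The authors' deposited table gave it -0.25 (SE 0.13, adjusted p = 0.107) in LinNeg, and -0.18 (SE 0.07, adjusted p = 0.0261) in LSK, so only the LSK fall passed. Ccng1 encodes cyclin G1, which recruits a phosphatase to Mdm2, and it rose in both: its derived mean went from 2976 to 4345 and from 2627 to 4513. The authors' deposited table gave 0.55 (SE 0.13, adjusted p = 0.000161) in LinNeg and 0.78 (SE 0.07, adjusted p = 5.48e-26) in LSK. Pidd1, the p53-induced protein with a death domain that assembles the PIDDosome, also rose in both. Its values in the authors' deposited table were 0.63 (SE 0.20, adjusted p = 0.0058) in LinNeg and 0.31 (SE 0.09, adjusted p = 0.00121) in LSK.

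Trp53inp1, a nuclear and autophagy-linked cofactor of p53, was the only member called in opposite directions, a pattern of 3.23% of members and 6.15% of the 15735 genes tested in both tables. In LinNeg its derived mean was 3207 under the WT label and 5236 under the KO label; in LSK it was 3267 and 797. The authors' deposited table gave 0.71 (SE 0.29, adjusted p = 0.0357) in LinNeg and -2.04 (SE 0.09, adjusted p = 2.49e-109) in LSK. The LSK fall, of 4.1-fold, had the smallest adjusted p of any member in either table, and it stands beside the fall of 9 of 10 stem cell markers in LSK; the part of that shift in it was not tested.

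The RNA-level members Pvt1 and Zmat3 had the largest called rises in LSK, and Pvt1 the second largest in LinNeg. Pvt1 is a long non-coding RNA next to Myc, on chromosome 15 from 62037986 to 62378096, with a p53-bound site known inside it. Its derived mean went from 106 to 785 in LinNeg (7.41-fold) and from 182 to 778 in LSK (4.27-fold). The authors' deposited table gave 2.89 (SE 0.31, adjusted p = 1.01e-18) and 2.09 (SE 0.15, adjusted p = 5.91e-43). An annotated gene on the same strand, Gm27913, overlaps 173 of the 6996 exon bases of Pvt1. Zmat3 encodes a zinc finger protein that binds RNA and regulates splicing downstream of p53. It went from 303 to 1001 in LinNeg (3.3-fold) and from 417 to 1434 in LSK (3.44-fold). The authors' deposited table gave 1.72 (SE 0.25, adjusted p = 1.17e-10) and 1.78 (SE 0.11, adjusted p = 1.93e-55), and the difference between populations was 0.06 (95% interval -0.48 to 0.60). Both genes rose in each population by more than 2-fold, beside a rise of all 8 tested erythroid markers whose part was not tested.

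The arrest genes showed no common direction. Cdkn1a encodes p21, the inhibitor of cyclin-dependent kinases through which p53 stops the cell cycle, and lies on chromosome 17 from 29090976 to 29100727. Its derived mean was 541 and 577 in LinNeg and 300.2 and 282 in LSK, WT before KO. The authors' deposited table gave 0.09 (SE 0.29, adjusted p = 0.828) in LinNeg and -0.09 (SE 0.15, adjusted p = 0.623) in LSK. The 95% intervals, -0.47 to 0.66 and -0.39 to 0.21, bound the changes that these libraries leave possible, and the LinNeg value changed sign, to -0.06, when read relative to the median gene. A transcript on the opposite strand, AC167363.2, overlaps 273 of its 3553 exon bases. Btg2, an anti-proliferative gene that is also an immediate early gene, fell in LSK from a derived mean of 1489 to 423. The authors' deposited table gave it -1.82 (SE 0.28, adjusted p = 1.99e-10) in LSK, and -0.03 (SE 0.18, adjusted p = 0.908) in LinNeg, where the derived means were 2524 and 2468.

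The polo-like kinases Plk2 and Plk3 are stress-regulated relatives of the mitotic kinase Plk1. Plk2 was sparse, with authors' means of 51.6 normalized counts in LinNeg and 20.1 in LSK. Those of Plk3 were 241 and 114. Plk3 rose in LSK from 72.9 to 154 in derived mean, at 1.08 (SE 0.27, adjusted p = 0.000156) in the authors' deposited table, with -0.05 (SE 0.39, adjusted p = 0.93) in LinNeg. Plk2 fell in LSK from 30.0 to 10.3, at -1.55 (SE 0.68, adjusted p = 0.0367) in the authors' deposited table, and stood at 0.96 (SE 0.70, adjusted p = 0.28) in LinNeg. The Plk3 exons share 84 bases with Tctex1d4 on the opposite strand, and whether counting used strand is not given in the sources used here.

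Among the growth and stress signalling members, 0 of 5 were called by DESeq2 in LinNeg, against 41.4% of all genes tested. There 1 of them (Phlda3) had an unadjusted p under 0.05 by DESeq2. In LSK 2 of 5 were called, in opposite directions, against 61.6% of all genes tested. Sesn1 and Sesn2 encode sestrins, which restrain mTORC1. Sesn1 fell in LSK from a derived mean of 3488 to 1323 (2.64-fold), at -1.40 (SE 0.08, adjusted p = 4.81e-74) in the authors' deposited table. The same gene in LinNeg had derived means of 2059 and 1893, and -0.12 (SE 0.19, adjusted p = 0.643) in the authors' deposited table. Sesn2 passed in neither: the authors' deposited table gave -0.10 (SE 0.19, adjusted p = 0.714) in LinNeg and 0.15 (SE 0.13, adjusted p = 0.33) in LSK. Phlda3, a pleckstrin-homology protein that competes with Akt for membrane lipids, was at 0.72 (SE 0.36, adjusted p = 0.0928) in LinNeg and 0.59 (SE 0.26, adjusted p = 0.0435) in LSK in the authors' deposited table, a rise that passed in LSK.

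Gdf15, a secreted stress cytokine, and Ddit4l, an inhibitor of mTOR signalling, had low counts and passed in neither table. The derived means of Gdf15 were 1.17 and 16.8 in LinNeg and 16.2 and 7.66 in LSK, WT before KO. Its log2 values in the authors' deposited table, 3.85 (SE 2.21, adjusted p = 0.157) and -1.08 (SE 0.72, adjusted p = 0.19), have intervals that span 0. Ddit4l had derived means of 41.9 and 37.2 in LinNeg and 5.35 and 0.99 in LSK, and the authors' deposited table gave -0.17 (SE 0.92, adjusted p = 0.903) and -2.43 (SE 1.44, adjusted p = 0.134). The intervals of Ddit4l span 0 as well.

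Of the death and surface genes, Aen and Eda2r rose in both populations. Aen encodes an apoptosis-enhancing nuclease and lies on chromosome 7 from 78895854 to 78911209. It went from 625 to 1245 in LinNeg and from 1047 to 1633 in LSK in derived mean. The authors' deposited table gave 0.99 (SE 0.18, adjusted p = 6.03e-07) and 0.64 (SE 0.08, adjusted p = 1.07e-16). Eda2r encodes the X-linked receptor of the ectodysplasin isoform A2, on chromosome X from 97333840 to 97377216. Its derived mean was 5.69 under the WT label and 53.4 under the KO label in LinNeg, and 49.3 and 110.2 in LSK. The authors' deposited table gave 3.23 (SE 0.91, adjusted p = 0.00157) and 1.16 (SE 0.27, adjusted p = 5.2e-05). Xist, the non-coding RNA that silences an X chromosome, was higher with the KO label in both tables, as given above, and its part in the Eda2r rise was not tested.

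Ei24, an endoplasmic reticulum membrane protein, rose slightly in LSK, at 0.23 (SE 0.07, adjusted p = 0.001) in the authors' deposited table, and was at 0.18 (SE 0.15, adjusted p = 0.367) in LinNeg. A gene on the opposite strand, Gm26787, overlaps 324 of its 4868 exon bases. Perp, a tetraspan protein of desmosomes that takes part in p53-dependent death, fell in LinNeg. Its derived mean went from 722 to 351 there, at -1.04 (SE 0.35, adjusted p = 0.00959) in the authors' deposited table. The LSK means were 80.4 and 93.1, and the authors' deposited table gave 0.21 (SE 0.24, adjusted p = 0.463). Cd80, the ligand of CD28 on antigen-presenting cells, passed in neither table. Its derived means were 18.2 and 27.9 in LinNeg and 4.14 and 6.22 in LSK, WT before KO.

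The repair genes were lower or uncalled. Xpc encodes the protein that recognises distorted DNA in nucleotide excision repair and lies on chromosome 6 from 91489305 to 91515888. Its derived mean fell from 4123 to 1021 in LinNeg (4.04-fold) and from 4302 to 1996 in LSK (2.15-fold). The authors' deposited table gave -2.01 (SE 0.15, adjusted p = 3.69e-41) in LinNeg, the smallest adjusted p of the members there, and -1.11 (SE 0.07, adjusted p = 1.47e-57) in LSK. Xpc exons overlap no other annotated gene, and 0% of its 50-base words occur in other genes. Polk, a polymerase that copies past damaged bases, fell in LSK at -0.49 (SE 0.11, adjusted p = 1.4e-05) in the authors' deposited table and was at 0.42 (SE 0.23, adjusted p = 0.126) in LinNeg. Mgmt, which removes alkyl groups from guanine, passed in neither, at -0.64 (SE 0.50, adjusted p = 0.325) in LinNeg and -0.03 (SE 0.19, adjusted p = 0.913) in LSK in the authors' deposited table.

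Rps27l, a ribosomal protein paralog that binds Mdm2, rose in both populations. It lies on chromosome 9 from 66946086 to 66949516. Its derived mean went from 1066 to 2086 in LinNeg (1.96-fold) and from 773 to 1932 in LSK (2.5-fold). The authors' deposited table gave 0.97 (SE 0.21, adjusted p = 1.67e-05) and 1.32 (SE 0.11, adjusted p = 2.54e-34). Processed copies share 11.2% of its 50-base words, more than for any other member, so its level is uncertain to that extent. Ephx1, the microsomal epoxide hydrolase, rose in LinNeg from 125 to 275, at 1.14 (SE 0.47, adjusted p = 0.0399) in the authors' deposited table. Its LSK means were 57.6 and 35.5, and the authors' deposited table gave -0.70 (SE 0.34, adjusted p = 0.0656). Dcxr, a carbonyl reductase, fell in LinNeg at -0.83 (SE 0.35, adjusted p = 0.0466) in the authors' deposited table, a call lost when p was adjusted over all genes with a p, and was at -0.29 (SE 0.16, adjusted p = 0.102) in LSK.

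Gtse1, Psrc1 and Ckap2 act on microtubules and the mitotic spindle, and their RNA peaks in G2 and mitosis. Gtse1, which also binds p53 and moves it out of the nucleus, rose in LSK from 980.0 to 1661 in derived mean, at 0.76 (SE 0.08, adjusted p = 9.57e-22) in the authors' deposited table, and was at 0.22 (SE 0.22, adjusted p = 0.428) in LinNeg. Psrc1 had 0.39 (SE 0.23, adjusted p = 0.16) in LinNeg and -0.06 (SE 0.10, adjusted p = 0.597) in LSK in the authors' deposited table. The authors' deposited table gave Ckap2 -0.08 (SE 0.22, adjusted p = 0.795) in LinNeg and -0.07 (SE 0.07, adjusted p = 0.403) in LSK. Over all genes tested, 32.4% were called higher and 29.2% lower in LSK, and 22.1% and 19.3% in LinNeg. Of 20 other G2 and mitosis genes, 17 were called higher and 2 lower in LSK (median 0.39), and 2 higher and 3 lower in LinNeg (median 0.05). In LSK the lower ones were Foxm1 and Nusap1, and the higher ones included Ccnb1 at 0.81 (SE 0.06) and Plk1 at 0.98 (SE 0.07) in the authors' deposited table, so Gtse1 moved in the direction of that list while Psrc1 and Ckap2 were not called. The motif TTTGAA of the cell cycle genes homology region was searched on both strands. It was found in 3 of 34 member windows, each of a different member and 1 of them Ckap2, against 17.9% of all windows.

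Trim35, a tripartite motif protein, fell in both populations, its derived mean going from 3348 to 2082 in LinNeg and from 4360.4 to 3203 in LSK. The authors' deposited table gave -0.69 (SE 0.15, adjusted p = 3.38e-05) and -0.45 (SE 0.07, adjusted p = 2.49e-10).

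**Figure D2:**
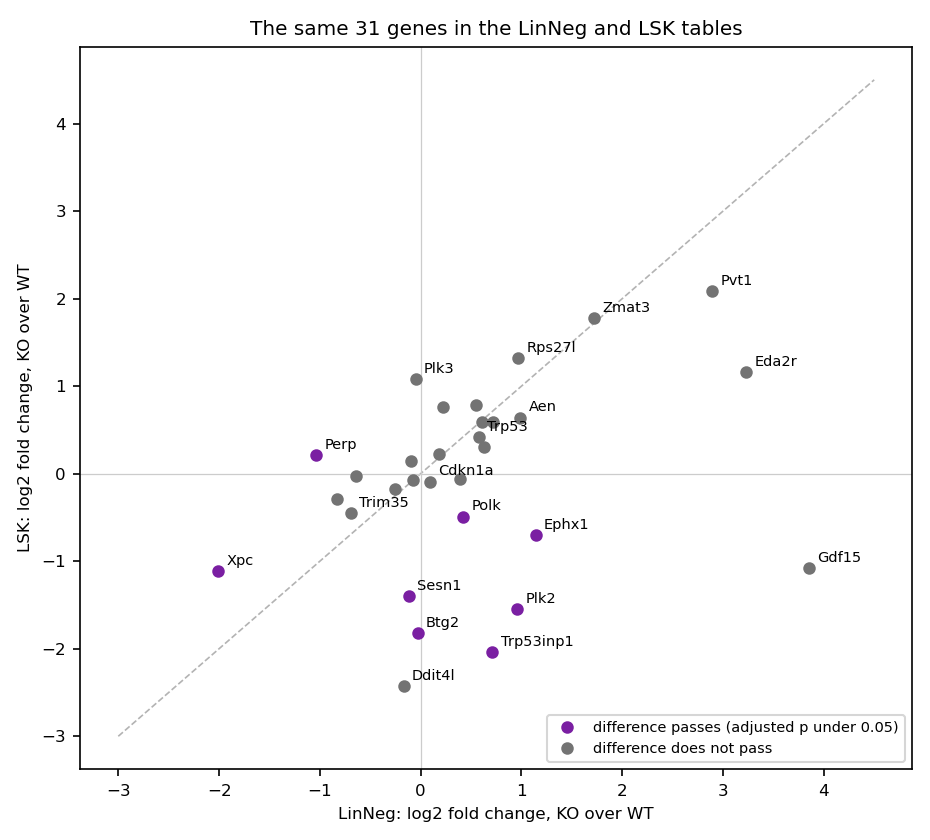
Log2 fold change, KO over WT, of the 31 genes in LinNeg (horizontal axis) and LSK (vertical axis), with the dashed line where both are equal; purple marks the 8 genes whose difference passed. Zmat3, Rps27l, Aen and Trp53 lie near the line, while Trp53inp1, Btg2, Sesn1, Plk2, Ephx1 and Polk lie below it.

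The 2 populations were compared gene by gene to ask whether the fold changes of the p53 target genes differed between them; the tables share no library, and the LSK libraries alone carry the letters BMT. Members called higher in both numbered 8 of 31 (25.8%, against 14.1% of the 15735 genes tested in both): Trp53, Ccng1, Pidd1, Pvt1, Zmat3, Aen, Eda2r and Rps27l. Xpc and Trim35 were called lower in both (6.45%, against 12.2%). The difference of the log2 fold changes, LSK minus LinNeg, passed at an adjusted p under 0.05 for 8 of 31 members (25.8%, against 31.9% of all genes). It was negative for Trp53inp1, at -2.74 (SE 0.30, adjusted p = 4.69e-18), Btg2, at -1.78 (SE 0.33, adjusted p = 9.8e-07), and Sesn1, at -1.28 (SE 0.20, adjusted p = 4.41e-09), from the normal test over the DESeq2 estimates. It was negative also for Ephx1 (-1.84), Plk2 (-2.51) and Polk (-0.91), and positive for Xpc (0.91) and Perp (1.25). Of the 8 members called higher in both, 0 had a difference that passed and 2 had one with an unadjusted p under 0.05 over the DESeq2 estimates. Being called higher in both itself favours a small difference, so these counts do not show that the rises are equal. Eda2r was at -2.07 (95% interval -3.93 to -0.21, adjusted p = 0.0824 over the DESeq2 estimates) and Pvt1 at -0.80 (95% interval -1.48 to -0.11, adjusted p = 0.065 over the DESeq2 estimates).

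Compared per kilobase of exon, the derived levels of the members ranged widely, down to 0.632 normalized counts for Gdf15 in LinNeg and 1.12 for Cd80 in LSK under the WT label. In LinNeg under the WT label the highest were Rps27l at 1306 normalized counts per kilobase and Trp53 at 1182, followed by Btg2 at 920.2, Ccng1 at 847 and Xpc at 750.5. Under the WT label in LSK the order was Trp53 at 1765, Rps27l at 947, Trim35 at 944, Sesn1 at 876 and Xpc at 783. Without values per library it cannot be said which neighbours in this order differ beyond their spread. Cdkn1a was at 152 per kilobase in LinNeg and 84.5 in LSK, rank 17 and rank 19 of 31. Pvt1 and Zmat3, at 15.1 and 26.5 under the WT label in LinNeg, reached 112 and 87.5 under the KO label.

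**Figure D3:**
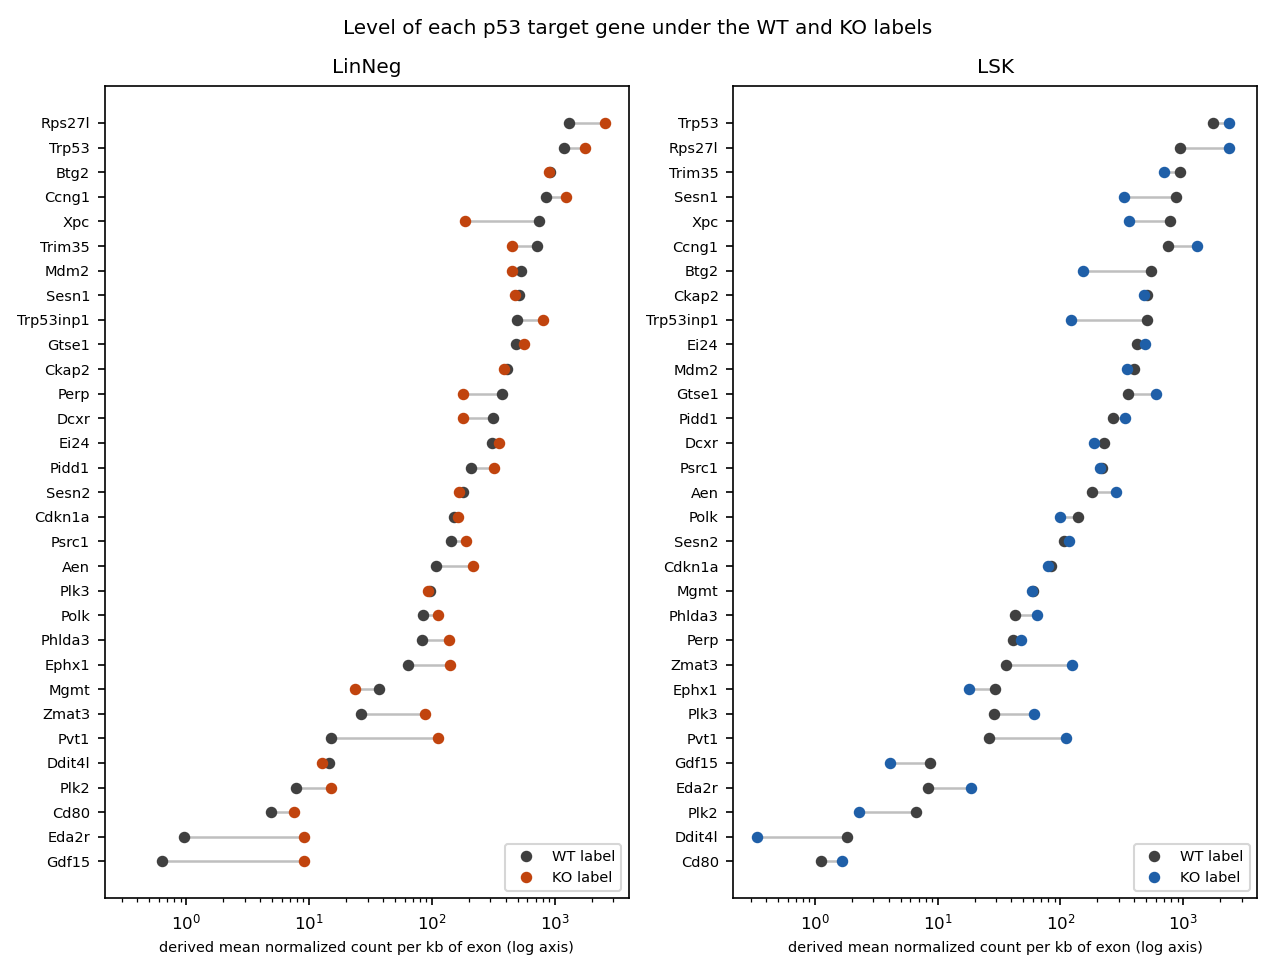
Derived mean normalized count per kilobase of exon (log axis) of each gene under the WT label (dark) and the KO label (coloured), in LinNeg and LSK, sorted by the WT level; no error can be drawn. Xpc shifts left in both panels, as do Perp in LinNeg and Trp53inp1, Btg2 and Sesn1 in LSK, while Pvt1 and Zmat3 shift right in both.

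Other genes of the pathway were read from lists of 22 further p53 targets and 24 regulators of p53. Of the further targets, 9 were called higher and 5 lower in LinNeg (median 0.48), and 6 higher and 8 lower in LSK (median -0.04). Over all genes tested, 22.1% were called higher and 19.3% lower in LinNeg, and 32.4% and 29.2% in LSK. Gls2, the liver-type glutaminase, was higher in both, at 2.92 (SE 0.57) in LinNeg and 3.49 (SE 0.26) in LSK in the authors' deposited table. Slc19a2, a thiamine transporter, was at 1.85 (SE 0.26) in LinNeg and 0.91 (SE 0.11) in LSK in the authors' deposited table. Bloc1s2 was called in opposite directions there, at -1.33 (SE 0.17) in LinNeg and 0.29 (SE 0.09) in LSK. In LSK the phosphatase Ptp4a3 was at -0.92 (SE 0.07) and Abhd4 at -0.96 (SE 0.08) in the authors' deposited table. Their LinNeg values were -0.13 (SE 0.17), not called, and -0.50 (SE 0.20).

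Of the regulators, 5 were called higher and 4 lower in LinNeg (median -0.01), and 11 higher and 6 lower in LSK (median 0.05). The share of all genes tested that was called in either direction was 41.4% in LinNeg and 61.6% in LSK. In LinNeg the deubiquitinases of p53 and Mdm2, Usp10 and Usp7, were at 1.39 (SE 0.18) and 0.81 (SE 0.17), and the acetyltransferase Ep300 at -0.58 (SE 0.14), in the authors' deposited table. The damage mediator Trp53bp1 was at -1.01 (SE 0.07), its partner Usp28 at -1.08 (SE 0.10) and the acetyltransferase Crebbp at -0.66 (SE 0.07) in the authors' deposited table for LSK. Rpl11, a ribosomal protein that binds Mdm2 when ribosome assembly fails, was at 0.83 (SE 0.09) there. In LinNeg it was at 0.15 (SE 0.18, adjusted p = 0.55 by DESeq2). Cdkn2a, named after its value was seen, had a mean of only 10.2 normalized counts in LSK and 5.81 (SE 1.36, adjusted p = 4.63e-05) in the authors' deposited table.

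**Figure D4:**
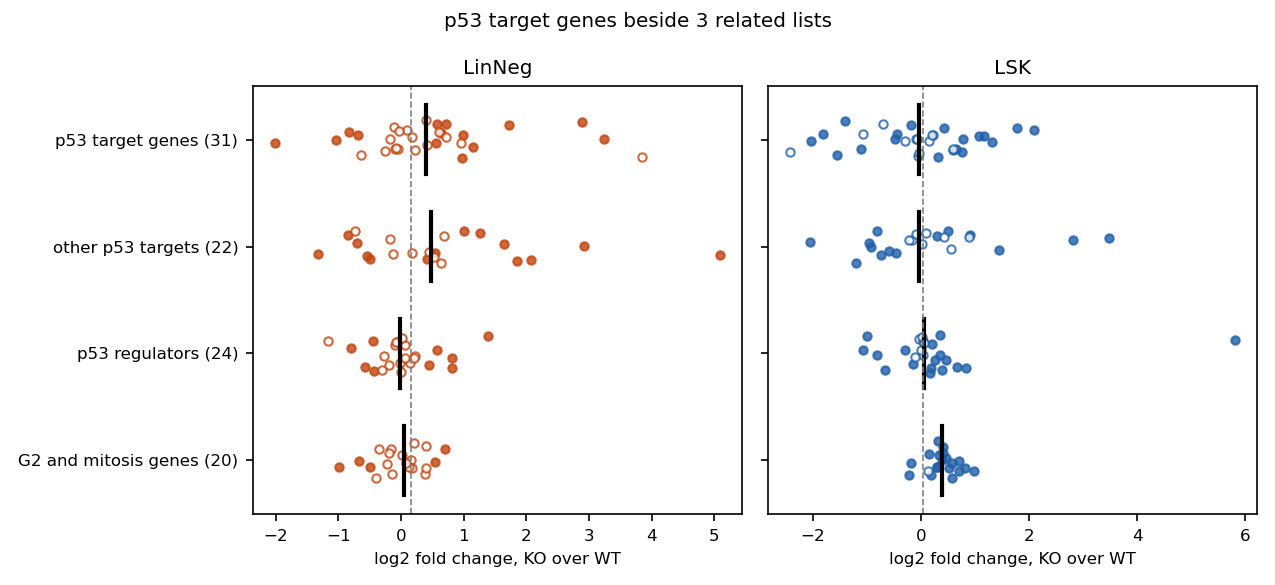
Log2 fold change, KO over WT, of the 31 p53 target genes, 22 other targets, 24 regulators and 20 G2 and mitosis genes in LinNeg (left) and LSK (right); filled points are called, bars are list medians and the dashed line is the median of all genes tested. The p53 target genes spread to both sides in each table, and in LSK 18 of the 20 G2 and mitosis genes are above 0, with Foxm1 (-0.18) and Nusap1 (-0.23) below it.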

How the data were processed

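RNA of 12 libraries (4 groups of 3) was sequenced after ribosomal RNA depletion, per the labels' protocols. Per the submitters' processing notes, the build was mm10 and processing involved DESeq2, StringTie, HISAT2 and SAMtools 1.10; for the counting program, strand setting and annotation, nothing is given in the sources used here. Values per library were not used here. Per the file headers, the authors' 2 deposited tables (LinNeg and LSK, KO over WT) hold a mean of normalized counts (a signal on a linear scale), a log2 fold change, its standard error in log2 units, the Wald statistic (a score), and a p-value with its adjusted p-value.

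Of 24542 rows per table, 5 that name no gene and 4 with repeated symbols were left out; the row for reads without a feature held 38% (LinNeg) and 26.4% (LSK) of the summed means. An adjusted p was present for 17108 and 16482 genes. The tests are the authors' DESeq2 calls at an adjusted p under 0.05. For derived values, the rounded log2 fold change was replaced by the product of the Wald statistic and its standard error. Means per label assume 3 libraries on each side. The difference between populations was tested by dividing the LSK minus LinNeg value by the standard error of that difference. This was a two-sided normal test on the estimates of the authors' DESeq2 fits, taking the tables as independent, with Benjamini-Hochberg over 15735 genes. The step was tested on simulated data with independent noise scaled by the same standard errors. Such data cannot show whether those standard errors or the independence hold in the real libraries. Independence is an assumption: the authors' tables share no library, but whether LinNeg and LSK came from the same animals is not given. With shared animals the standard errors of the differences could be off. Exon lengths, overlaps and shared 50-base words come from GENCODE M21 (mm10); start-site windows come from RefSeq (GRCm38.p6, the same assembly). Intervals are 95% normal intervals.

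Named genes were all members, U2af1 and up to 4 called genes with the smallest adjusted p of each other list. Ddx3y, Eif2s3y, Uty, Kdm5d, Xist, Kit and Cdkn2a were added after their values were seen. Members and lists were chosen with earlier results of these data known. Alternatives were a threshold of 0.01, a 2-fold minimum, recentring on the median gene, adjustment over all genes with a p, and a mean of at least 50. Scripts ran in Python 3.11.15 (scipy 1.17.1, matplotlib 3.10.9, numpy 2.4.6, pandas 2.3.3).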

Additional observations from a re-analysis of the deposited data

Results flagged for a closer look

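For 8 p53 target genes the fold change of KO-labelled over WT-labelled libraries differed between LSK and LinNeg by the test of the difference itself (LSK minus LinNeg, normal test over the DESeq2 estimates, Benjamini-Hochberg over all genes). Trp53inp1 differed by -2.74 (95% interval -3.33 to -2.15), the cofactor having risen in LinNeg and fallen in LSK. Btg2 differed by -1.78 (95% interval -2.44 to -1.13) and Sesn1 by -1.28 (95% interval -1.67 to -0.88), each called lower in LSK alone. The difference was -0.91 (95% interval -1.40 to -0.42) for Polk, -1.84 (95% interval -2.98 to -0.69) for Ephx1 and -2.51 (95% interval -4.41 to -0.60) for Plk2. For Xpc it was 0.91 (95% interval 0.59 to 1.22): the fall was larger in LinNeg. For Perp it was 1.25 (95% interval 0.42 to 2.09). The LSK libraries alone carry the letters BMT. In LSK the label also goes with Ddx3y at -9.21 and Xist at 7.49 in the authors' deposited table. In LinNeg it goes with Xist at 10.02, while Ddx3y was at -0.79 (SE 1.64) and not called. Population, BMT and these shifts cannot be told apart.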

How the results depend on the processing

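Requiring a 2-fold change left 4 members called higher and 2 lower in LinNeg (10 and 4 without it), and 5 higher and 5 lower in LSK (12 and 8 without it), which follows from the requirement itself. A threshold of 0.01 left 1 positive difference between LSK and LinNeg in place of 2, and recentring both tables on their median gave 4, adding Plk3 and Gtse1. Recentring turned the sign of 2 uncalled values: Cdkn1a in LinNeg, to -0.06, and the Cd80 difference, to 0.09; the shift of 0.16 in LinNeg exceeds both values. Under the threshold of 0.01 the calls of Trp53inp1, Ephx1 and Dcxr in LinNeg, of Mdm2, Phlda3 and Plk2 in LSK, and of the Perp and Plk2 differences ended. The other counts of calls stayed within 1.5 times of those reported under the 5 alternatives for the tables and the 3 for the difference, and U2af1 kept its direction and call when recentred. With a mean of at least 50, 4 members in LinNeg and 5 in LSK were not tested, and 6 for the difference. No paired analysis was possible because the tables hold no values per library. For the same reason no library could be left out, and the depth behind each value is unknown.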

Other observations

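Across the 31 p53 target genes the LinNeg and LSK log2 fold changes had a Pearson r of 0.32 and a Spearman rho of 0.39, and 21 of 31 (67.7%) had the same sign. Over the 15735 genes tested in both tables the values were 0.28, 0.34 and 66.2%. These are descriptions across genes, which are not independent replicates, and the libraries of each table are shared by all its genes.

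The 7 members with a start-site match to the p53 consensus had mixed values in the authors' deposited tables. Ccng1 and Rps27l were called higher in both, Gtse1 was called higher in LSK (0.76), Sesn1 was called lower in LSK (-1.40), and Cdkn1a, Ckap2 and Cd80 were called in neither.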
